A study of Prunus persica with 4 samples.

Results

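The candidates described here are the precursors of the deposited list of peach-specific miRNA candidates whose main arm sequence was listed at 4 or more loci. The main arm is the listed 5p or 3p sequence with the higher read count, on the 5′ or the 3′ side of the hairpin, and the 5p sequence where the counts were equal. There were 21 such candidates among the 186 of the list, and they fell into 4 repeat groups with 7, 5, 5 and 4 loci, each with 1 shared main arm sequence. They were selected on the listed arm sequences and on the arm read counts, so the shared sequence, the size of a group and these counts are descriptions and were not tested. Another sequence at 4 loci, with 18 reads at miRC65, miRC81, miRC82 and miRC102, was left out by name. Just below the limit lay a single sequence at 3 loci, that of miRC26, miRC130 and miRC172, with 532 reads at each. Just inside it lay the miRC5 group at 4 loci with 10 reads at each. At a limit of 5 loci this group would drop out, which leaves 17 members in 3 groups, and the loss of any of its loci would have the same effect.

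All reads came from 1 small RNA library without a replicate, prepared from mixed RNA of flower buds, young stems and young leaves of Prunus persica cv. Lovell trees, with no treatment given in the labels. Because tissues were mixed, no value belongs to a single tissue, and because there was 1 library, no value has a replicate error. The 3 degradome libraries of young leaves, young stems and flowers were not analysed here. The positions below are those of the deposited list, on scaffolds of a peach genome whose version is not given in the sources used here, and are counted from 1.

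In plants a miRNA is cut by a Dicer-like enzyme from the stem of a hairpin transcript, and a strand of the resulting duplex is loaded into an Argonaute protein, where it guides the cleavage of matching mRNAs. The first base of the strand influences which Argonaute protein takes it up. Genomes also hold inverted repeats, for example at the ends of many transposable elements, whose transcripts fold back into long hairpins and can be cut into small interfering RNAs. A short read that matches a repeated sequence maps equally well to each copy, so that its locus of origin cannot be told from the read.

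The 4 main arm sequences are shown because each of them defines a group, which is called here by its first candidate. They are written 5′ to 3′ in the DNA letters of the deposited list, with bases 2 to 8, the seed of a miRNA, in capitals, and no seed was shared between the groups.
miRC23 group: tACAGCCGtccggctatact
miRC27 group: tGTCTATTtcagtacgtcgtgta
miRC32 group: aAAGACTAaaatacccttga
miRC5 group: gCTCATGGgtcgggcttgggctt

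The main arms of the miRC23 and miRC32 groups were 20 nt long and those of the miRC27 and miRC5 groups 23 nt. Those of the miRC23 and miRC27 groups started with T (uracil in the RNA), that of the miRC32 group with A and that of the miRC5 group with G. The last base was T in the miRC23 and miRC5 groups and A in the miRC27 and miRC32 groups. G or C made up 55.0% of the miRC23 sequence, 39.1% of the miRC27 sequence, 6 of the 20 bases of the miRC32 sequence and 65.2% of the miRC5 sequence. None of the 4 sequences was 21 nt long. Over the 149 distinct main arms of the other 165 candidates, 13 were 20 nt long (8.72%), 55 were 21 nt (36.9%), 12 were 22 nt and 69 were 23 nt (46.3%), and their median GC content was 43.5%. Compared without gaps with the 117 sequences of conserved peach miRNAs given with the study, the 4 sequences differed from the nearest at 8 bases in the miRC27 group, at 9 in the miRC23 and miRC5 groups and at 11 in the miRC32 group. From the nearest other main arm of the list they differed at 9 to 11 bases. These values can miss likeness at a shifted start. In the precursor of miRC113, bases 66 to 85 differed from the miRC23 main arm at 3 bases. The main arm of miRC113 itself covers bases 67 to 89, so it resembles the miRC23 main arm when shifted.

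The miRC27 group had the most reads, with 49 on the main arm at each of its 5 loci. The exact 95% Poisson interval of 49 reads is 36.3 to 64.8, and like the other intervals of reads below it covers counting error only. The miRC5 group had 10 reads at each of 4 loci (interval 4.80 to 18.4) and the miRC32 group 7 reads at each of 5 loci (interval 2.81 to 14.4). In the miRC23 group the main arm had 8 reads at miRC23, miRC50, miRC139 and miRC159 and 10 reads at miRC37, miRC98 and miRC182. The counts of the loci were thus equal within 3 of the 4 groups, and the loci of a group are not separate measurements. Summed over all loci the members had 382 main arm reads, which was 2.54% of the 15045 main arm reads of all candidates. This sum counts a shared sequence at every locus, so no interval is given for it. With each sequence counted once at its highest count, the 4 sequences had 76 reads, or 0.620% of 12257 (95% Wilson interval 0.496 to 0.775%).

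Of the 391 reads listed for the member precursors, summed over the loci, 382 were on the main arm (97.7%). The main arm was defined by the higher count, and the sum repeats shared sequences, so this share is a description only. A second arm was listed for 1 of the 21 members, miRC23, whose 5p sequence had 3 reads beside 8 on the 3p main arm. Among the other candidates a second arm was listed for 45 of 165 (27.3%), against 4.76% of the members. The loci of a group are not independent, and the members hold only 4 distinct main arms. Read depth also differed. Main arms had 7 to 49 reads in the members (median 10) and 5 to 1876 in the others (median 13). The difference in second arms was not tested. In 14 of the members every read of the precursor was on the main arm sequence, and miRC53, miRC90, miRC98, miRC120, miRC155 and miRC182 had 1 further read each on neither listed arm.

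The miRC23 group was found on both strands and on both sides of the hairpin. Its 7 loci lay on 5 scaffolds, with 2 loci on the minus strand and 5 on the plus strand, and the main arm was on the 5p side at 4 loci and on the 3p side at 3. miRC23 lay at scaffold 1:43907399-43907541 (+), and miRC37 at scaffold 1:36087499-36087629 (-). miRC50 lay at scaffold 2:24909370-24909444, miRC98 at scaffold 4:1986534-1986808 and miRC139 at scaffold 6:682144-682248, all on the plus strand. miRC159 lay at scaffold 6:26064900-26064986 (-) and miRC182 at scaffold 8:16236888-16237002 (+). No 2 loci of the group were closer than 7819770 bases.

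The hairpins of this group differed in length and in loop size. The precursors were 75 to 275 nt long, with a loop of 14 nt (miRC50) to 215 nt (miRC98) between the main arm and the segment it pairs with. Over the 21 pairs of precursors the identity in a global alignment had a median of 51.0% and ran from 23.1% (miRC50 and miRC98) to 67.6% (miRC139 and miRC159), with gap positions counted as differences. Over the aligned bases alone the median was 78.6% and the range 65.3% (miRC139 and miRC182) to 88.6% (miRC50 and miRC139). On that scale miRC50 and miRC98 were 87.7% identical, so that their low value came from gap positions. Whole precursors of 4 members are shown, with the main arm in capitals, because they differ in the side of the main arm and in the loop.
miRC50 (75 nt): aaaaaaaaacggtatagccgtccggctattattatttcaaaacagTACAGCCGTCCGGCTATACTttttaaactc
miRC159 (87 nt): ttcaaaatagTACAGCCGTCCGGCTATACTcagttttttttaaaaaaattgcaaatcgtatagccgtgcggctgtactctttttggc
miRC139 (105 nt): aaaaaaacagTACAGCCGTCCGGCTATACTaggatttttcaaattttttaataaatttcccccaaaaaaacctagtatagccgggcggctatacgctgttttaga
miRC23 (143 nt): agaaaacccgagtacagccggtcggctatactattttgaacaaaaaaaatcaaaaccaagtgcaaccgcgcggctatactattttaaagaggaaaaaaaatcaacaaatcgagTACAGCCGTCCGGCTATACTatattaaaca

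The main arm of the miRC23 group holds the word AGCCG at bases 4 to 8 and its reverse complement CGGCT at bases 11 to 15, with 2 bases between them, so that this stretch reads nearly alike on both strands. A word of at least 5 bases with its reverse complement elsewhere in the same arm was found in 10 of the 149 distinct main arms of the other candidates. The longest such word had 3 bases in the miRC27 and miRC32 sequences and 2 bases in the miRC5 sequence. The segments paired with the main arm in the deposited structures are given for all 7 loci, with the words AGCCG and CGGCT in capitals. The paired segments held CGGCT at 7 of 7 loci and both words at 5 of 7, in the same order as the main arm itself, and the 2 bases between the words varied.
miRC23, precursor bases 11 to 30: agtacAGCCGgtCGGCTata
miRC37, precursor bases 103 to 121: gtatagccacgCGGCTata
miRC50, precursor bases 11 to 31: ggtatAGCCGtcCGGCTatta
miRC98, precursor bases 246 to 265: agtatAGCCGtgCGGCTata
miRC139, precursor bases 74 to 95: agtatAGCCGggCGGCTatacg
miRC159, precursor bases 58 to 76: gtatAGCCGtgCGGCTgta
miRC182, precursor bases 12 to 30: agtatagccaaCGGCTata

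The arms of these hairpins were compared in both directions. In miRC23 the sequence listed for the 5p arm, tacagccggtcggctatact, differed from the main arm at 2 bases when both were read in the same direction. Read as a reverse complement, the best matching stretch of the same precursor (bases 11 to 30) differed from it at 3 bases. The fewest differences in the same direction, outside the main arm itself, were 2 in miRC23, 3 in miRC50, miRC98 and miRC159, 4 in miRC37 and miRC139 and 9 in miRC182. The fewest differences from the reverse complement were 2 in miRC139, 3 in miRC23, miRC98 and miRC159, 5 in miRC37 and miRC50 and 10 in miRC182. The comparison allowed no gaps. The paired segment is 1 base shorter than the main arm in miRC182, and also in miRC37 and miRC159. In the deposited structures 2 to 4 of the 20 bases of the main arm were unpaired at these loci. Over the 7 loci, 64 bases paired as G with C, 51 as A with T and 4 as G with T (G with U in the RNA).

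The loci with 10 reads on the main arm differed from those with 8 reads in the bases that follow it in the precursor. At miRC37, miRC98 and miRC182, with 10 reads, the next 4 bases were ATTT. At the loci with 8 reads they were ATAT (miRC23), TTTT (miRC50), AGGA (miRC139) and CAGT (miRC159). The loci share the main arm sequence, so these counts are not independent draws. The counting interval (3.45 to 15.8 for 8 reads) therefore does not measure the difference of 2 reads. The ends of single reads were not analysed here, and this relation was not tested.

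The deposited folding free energies of the miRC23 group, given here as their size, were 25.5 kcal/mol in miRC50, 36.4 in miRC37, 37.8 in miRC23, 41.5 in miRC159, 43.6 in miRC182, 48.6 in miRC139 and 100.1 in miRC98. Per 100 nt of precursor they ran from 26.4 kcal/mol in miRC23 to 47.7 kcal/mol in miRC159, with a median of 36.4 kcal/mol, beside a median of 37.5 kcal/mol over the other 165 candidates. The GC content of the 7 precursors was narrow, from 36.6 to 39.1%. The word of 7 bases found most often in this group was GCTATAC, counted on both strands (reverse complement GTATAGC), with 22 occurrences, 2 to 5 per precursor, and another word had as many. The main arm holds it once. Here and below, a word had to occur in every precursor of its group to be taken. Its presence in all members was thus fixed by the choice. GCTATAC was also found in 4 of the 165 other precursors (2.42%, Wilson interval 0.947 to 6.07%), namely miRC4, miRC113, miRC152 and miRC175.

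Other candidates also held copies of the miRC23 sequence. With up to 3 mismatches on either strand, 9 further copies were found inside 5 of the 7 member precursors and 6 copies inside 2 other candidates. A stretch that matched in both directions counts as 2 copies, as in miRC23, miRC98, miRC159, miRC4 and miRC113. All copies in members overlapped the segment paired with the main arm, except that at bases 57 to 76 of miRC98. miRC113, at scaffold 4:1583674-1583772 (-), held 4 of these copies, and the closest was a reverse complement with 1 mismatch at bases 64 to 83. They lay on 2 stretches, each of which matched in both directions. Its own main arm, aTAGCCGGacggctatactcgta, with 9 reads, covered bases 67 to 89 and overlapped 2 of the copies. miRC4, at scaffold 1:4312499-4312653 (+), held 2 copies with 3 mismatches each between bases 71 and 92, apart from its main arm at bases 123 to 145. No other candidate held such a copy of the main arm of the miRC27, miRC32 or miRC5 group.

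The miRC27 group consisted of nearly identical precursors, apart from the longer miRC155. All 5 loci were on the minus strand and had the main arm on the 5p side. miRC27 lay at scaffold 1:13101919-13102073, miRC51 at scaffold 2:2582094-2582248, miRC55 at scaffold 2:4786889-4787043, miRC122 at scaffold 4:28530741-28530895 and miRC155 at scaffold 6:15696515-15696856. The first 4 precursors were 155 nt long and 98.1 to 100% identical. miRC27 and miRC51 were the same in every base although they lay on different scaffolds. miRC55 differed from miRC27 at 1 base, at position 141, and miRC122 at 3 bases between positions 141 and 154. In these 4 precursors the main arm was the same by construction. No difference lay in the loop of 89 nt or in the first 10 bases, and 2 of the 23 bases of the paired segment varied. The precursor of miRC27 is shown with its main arm in capitals.
miRC27 (155 nt): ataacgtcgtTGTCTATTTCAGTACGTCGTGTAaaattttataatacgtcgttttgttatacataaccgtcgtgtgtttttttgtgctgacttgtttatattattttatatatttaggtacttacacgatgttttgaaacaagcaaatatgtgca

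The hairpins of this group were imperfect. The stretch opposite the main arm differed from its reverse complement at 6 bases in miRC27, miRC51 and miRC155, at 7 in miRC55 and at 8 in miRC122. These stretches are shown with the differing bases in capitals, and that of miRC51 was the same as that of miRC27.
miRC27, precursor bases 123 to 145: tacacgaTgtTTtgaaaCaAGca
miRC55, precursor bases 123 to 145: tacacgaTgtTTtgaaaCGAGca
miRC122, precursor bases 123 to 145: tacacgaTgtTTtgaaaCGAGcT
miRC155, precursor bases 310 to 332: tacacgaTgtTTtgaaatGAGca

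In the deposited structures 4 of the 23 main arm bases were unpaired in miRC27, miRC51 and miRC55 and 3 in miRC122 and miRC155. The single difference of miRC55 left the number of unpaired bases at 4, with 10 pairs of A with T and 3 of G with T in place of 11 and 2 in miRC27. Over the 5 loci, 30 main arm bases paired as G with C, 54 as A with T and 13 as G with T. The folding free energy was 38.2 kcal/mol in miRC27, miRC51 and miRC55, 36.3 in miRC122 and 90.6 in the longer miRC155. Per 100 nt it was 23.4 to 26.5 kcal/mol with a median of 24.6, the lowest median of the 4 groups, and 126 of the 165 other candidates had a larger value than any locus of the group.

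miRC155 was 342 nt long, more than the 155 nt of the others, and carried a second copy of the 5′ part of the unit. Its first 85 bases were the same as those of miRC27. In a global alignment the remaining difference in length was a single insertion of 187 bases, from base 81 to base 267, with 4 substitutions elsewhere. Bases 192 to 276 differed from the first 85 bases of the same precursor at 7 positions, and within them a copy of the main arm at bases 202 to 224 had 1 mismatch. From base 192 to base 341 the precursor was 94.2% identical to miRC27 in a local alignment. The listed main arm of miRC155 was that of the first copy, at bases 11 to 33, and in the deposited structure it paired with bases 310 to 332, which lie after the second copy. The word ACGTCGT (reverse complement ACGACGT) was the most frequent word of 7 bases in this group, with 3 occurrences in each precursor of 155 nt and 8 in miRC155, all on the given strand. The main arm holds it once, and its presence in every member was fixed by the choice of the word. It was found on either strand in 4 of the 165 other precursors (2.42%, Wilson interval 0.947 to 6.07%), namely miRC2, miRC11, miRC28 and miRC118.

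The miRC32 group was made of long, AT-rich inverted repeats. All 5 loci had the main arm on the 3p side. miRC32 lay at scaffold 1:21464228-21464463 (-), miRC96 at scaffold 3:16796441-16796675 (-) and miRC119 at scaffold 4:20446956-20447191 (-). miRC77 and miRC97 lay at the same place, at scaffold 3:17476033-17476268, miRC77 on the plus strand and miRC97 on the minus strand. Their precursors were exact reverse complements of each other, so that the 5 candidates stood for 4 places in the genome, the nearest of which were 679358 bases apart. The precursors were 235 or 236 nt long with 17.9 to 20.8% G or C, and 2 of the 165 other candidates had a GC content within or below this range.

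At the place of miRC77 and miRC97 the arms of the hairpin were perfect reverse complements over the 20 bases of the main arm. The main arm of miRC77 covered bases 17476239 to 17476258 on the plus strand, and that of miRC97 bases 17476043 to 17476062 on the minus strand. The same 20 bases can thus be read from either strand of this place, and the list gave 7 reads to each candidate. The reverse complement had 0 mismatches in these members, 1 in miRC96 and miRC119 and 2 in miRC32. A reverse complement with 0 mismatches was found in 6 of the 165 other candidates, whose median was 6 mismatches. The stretches opposite the main arm are shown with the bases that differ from its reverse complement in capitals, followed by the precursor of miRC77 with its main arm in capitals.
miRC77 and miRC97, precursor bases 11 to 30: tcaagggtattttagtcttt
miRC96, precursor bases 12 to 31: tAaagggtattttagtcttt
miRC119, precursor bases 12 to 31: tcaagggtattttaAtcttt
miRC32, precursor bases 12 to 31: tTaagAgtattttagtcttt
miRC77 (236 nt): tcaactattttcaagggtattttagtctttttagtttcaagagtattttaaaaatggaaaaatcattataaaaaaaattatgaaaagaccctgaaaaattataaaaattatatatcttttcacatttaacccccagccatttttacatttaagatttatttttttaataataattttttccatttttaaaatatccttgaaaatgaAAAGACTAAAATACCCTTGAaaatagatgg

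Read in the direction of the list, miRC32, miRC77, miRC96 and miRC119 were 89.9 to 93.2% identical in pairs, and miRC97 was 69.3 to 72.8% identical to them. In the multiple alignment of the first 4, the 20 bases of the main arm were the same by construction, 17 of 20 bases of the paired segment were the same in all, and so were 146 of the 175 bases of the loop (83.4%). Of 100 main arm bases over the 5 loci, 3 were unpaired, 26 paired as G with C, 70 as A with T and 1 as G with T. The folding free energy was 59.7 kcal/mol in miRC32, 71.9 in miRC119, 75.9 in miRC96, 81.77 in miRC77 and 89.1 in miRC97. The opposite strands of 1 place thus differed by 7.33 kcal/mol. Per 100 nt the energies were 25.3 to 37.8 kcal/mol, a range that held 51 of the 165 other candidates. The word of 7 bases most frequent in this group was TTTAAAA (reverse complement TTTTAAA), with 23 occurrences, 4 to 6 per precursor. The main arm does not hold it, and it was found in 12 of the 165 other precursors (7.27%, Wilson interval 4.21 to 12.3%).

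The miRC5 group was made of short, GC-rich hairpins. Its 4 loci lay on 4 scaffolds, with the main arm on the 3p side at each. miRC53 lay at scaffold 2:4596433-4596512, miRC90 at scaffold 3:7806300-7806378 and miRC120 at scaffold 4:23745607-23745685, all on the minus strand. These 3 precursors are shown whole, with the main arm in capitals, because the stem covers most of their length.
miRC53 (80 nt): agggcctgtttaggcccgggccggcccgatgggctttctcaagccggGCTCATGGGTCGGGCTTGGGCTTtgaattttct
miRC90 (79 nt): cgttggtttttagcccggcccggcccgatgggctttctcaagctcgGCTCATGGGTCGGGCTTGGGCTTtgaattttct
miRC120 (79 nt): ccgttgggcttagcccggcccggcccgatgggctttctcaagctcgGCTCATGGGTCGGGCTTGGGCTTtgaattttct

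Each hairpin of the miRC5 group had a loop of 13 nt. Identity in pairs was lowest between miRC5 and miRC120 (78.3%) and had a median of 84.6% over the 6 pairs. It includes the main arm, which is the same by construction. The closest pair was miRC90 and miRC120, which differed by 2 substitutions and 2 gap positions. Of the 22 bases of the paired segment, 19 were the same in all 4, and so were 10 of the 13 bases of the loop. Of the 14 bases before the paired segment in miRC5, 2 were the same in all 4. The other precursors have fewer bases there to compare, since the paired segment starts at base 13 in miRC53 and at base 12 in miRC90 and miRC120. The 3 precursors on the minus strand had the bases TGAA after the main arm, with 10 main arm reads in each. In miRC5 other bases followed, and the main arm also had 10 reads.

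The precursors of the miRC5 group had 58.2 to 62.5% G or C, above the highest value of the 165 other candidates, 54.7%. In each locus 2 of the 23 main arm bases were unpaired in the deposited structure. Over the 4 loci 58 bases paired as G with C, 10 as A with T and 16 as G with T. The opposite stretch differed from the reverse complement of the main arm at 10 bases in miRC5, 7 in miRC53 and 8 in miRC90 and miRC120. That comparison counted pairs of G with T as differences and allowed no gap. The folding free energy was 38.6 kcal/mol in miRC5 and miRC53, 39.9 in miRC120 and 43.1 in miRC90. Per 100 nt this was 47.1 to 54.6 kcal/mol with a median of 49.4, the highest median of the 4 groups, and 36 of the 165 other candidates had a value at or above 47.1 kcal/mol. The word TGGGCTT (reverse complement AAGCCCA) occurred 2 times in miRC5, miRC53 and miRC90 and 3 times in miRC120. The main arm holds it once, and its presence in every member was fixed by the choice of the word. Only 1 other precursor of the list, that of miRC185, held it (0.606% of 165, Wilson interval 0.107 to 3.35%).

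The 21 members had no common hairpin form. Precursor lengths ran from 75 to 342 nt with a median of 155 nt, beside a median of 120 nt over the other 165 candidates, and the loop from 13 to 276 nt. Longer than 200 nt were 7 of the 21 members and 36 of the 165 others. The minus strand carried 14 of the members and the plus strand 7, and the main arm was on the 5p side at 9 loci. Of the 165 others, 84 were on the minus strand and 81 on the plus strand, and 88 had the main arm on the 5p side. The folding free energy per 100 nt had a median of 34.0 kcal/mol, beside 37.5 kcal/mol over the others. At most 4 main arm bases were unpaired in 21 of 21 members and in 146 of the 165 others. In each of the 21 members the precursor began or ended exactly 10 bases outside the main arm, which was also the case in 159 of the 165 others. No test was run between the members and the others, because the loci of a group share their sequence and are not independent.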

How the data were processed

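The authors deposited 1 list of miRNA candidates with raw read counts, not normalized, for each precursor and for its listed 5p and 3p sequences, and with positions, precursor sequences, dot-bracket structures and folding free energies in kcal/mol. Per the methods, adaptors were trimmed, reads assigned to known miRNAs or to other classes of non-coding RNA were set aside, candidates were found with MIREAP at default parameters, and hairpins were folded with Mfold. The columns name no sample and were assigned to the small RNA library, the only one of its kind in the series. Reads of a sequence shared by several loci cannot be told apart, so sums over loci count a shared sequence more than once.

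The members and the words compared were chosen with earlier results of these data known. Each word was the most frequent of those found in every precursor of its group. All members were named, and other candidates where they hold a copy of a main arm or lie at the limit of 4 loci. Candidates that hold a shared word were named after their values were seen.

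Identity came from global alignments with Biopython 1.88 (match 2, mismatch -1, gap opening -4, gap extension -0.5) and from MAFFT 7.526. In every group the identity of whole precursors includes the main arm, which the rule for members made the same. Copies were searched without gaps at up to 3 mismatches. Precursors were folded again with RNAfold of ViennaRNA 2.7.2. Intervals are 95% Wilson or exact Poisson intervals from scipy 1.17.1. Those of reads cover counting error in 1 library only. Those of word shares treat the 165 other precursors as independent draws, although these hold 149 distinct main arms. The search for copies and the rule for members were tested on planted sequences. No test between groups was run. A gene table of another assembly was not used here, so no annotation is given. The position and precursor sequence of miRC5 are not reported here.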

Additional observations from a re-analysis of the deposited data

How the results depend on the processing

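The 21 members fell to 13 where precursors needed at least 10 reads, since the miRC32 group (7 reads each) and miRC50, miRC139 and miRC159 (8 reads each) were then left out. These 13 lay in 3 groups. The number of members was 24 at 3 or more loci, 17 at 5 or more, 21 with the 3p arm taken at equal counts and 20 with overlapping precursors merged, and the groups were 5 and 3 at the first 2 of these limits. The main arm reads fell from 382 to 76 with each sequence counted once, since the loci of a group share the sequence, and were 391 by the total count of the precursor. The median identity over the 47 pairs was 61.1%, and 84.8% with gaps left out; the gaps lay mostly in pairs of unequal length in the miRC23 and miRC27 groups. Of the 21 further copies of main arms, 10 remained at up to 2 mismatches and 6 at up to 1. A stretch that matched in both directions counts as 2 of these copies.

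Folding again with RNAfold gave a median energy of 30.9 kcal/mol per 100 nt in place of 34.0. With the deposited energies, the median of the group medians was 34.3. The deposited and the RNAfold energy of a member differed by at most 4.0 kcal/mol. The median number of unpaired main arm bases was 2 in place of 3, and 18 of 21 members kept theirs. The main arms had 7 to 49 reads each. The 8 and the 10 reads of the miRC23 group belong to a shared sequence, so counting intervals cannot compare them. No paired analysis was possible because a single small RNA library was sequenced. Copies in the genome were not searched for.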
